A study of Mus musculus with 8 samples.

Results

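The Fc gamma receptors of mouse alveolar macrophages were described here through 5 genes, taken from the deposited table by their names. They were the activating receptors Fcgr1, Fcgr3 and Fcgr4, the signalling chain Fcer1g and the inhibitory receptor Fcgr2b, out of 48709 genes in the table, and all 5 were among the 11083 genes that were tested. Cells came from WT mice of the C57BL/6J strain and from Batf2-/- mice, which lack a basic leucine zipper transcription factor, and the question of the study was how that factor affects macrophage polarization. Cells of both genotypes were kept ex vivo, given 10 ng/mL interferon gamma (IFNg) over 4 h followed by 6 h with 20% K. pneumoniae supernatant, so untreated cells were not part of the comparison. Each of the 4 libraries per genotype was a pool of cells from 4 mice, 16 mice per genotype in all, so the spread below is a spread between pools.

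Fc gamma receptors bind the constant part of IgG and let a macrophage take up or respond to antibody-coated microbes. The activating receptors Fcgr1, Fcgr3 and Fcgr4 pair with the chain encoded by Fcer1g. This chain carries an immunoreceptor tyrosine-based activation motif (ITAM), which the receptors themselves lack. Src-family kinases phosphorylate the motif, which then binds the kinase Syk. Fcgr2b carries an inhibitory motif (ITIM) in its own tail, which recruits the lipid phosphatase encoded by Inpp5d and limits signals from activating receptors bound to the same immune complex. Interferon gamma is a known inducer of activating Fc gamma receptors on macrophages, Fcgr1 above all.

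The signalling motifs that set the activating chain apart from the inhibitory receptor are shown first, as coding sequence read 5′ to 3′ on the minus strand of GRCm38, with the motif in capitals. The stretch of Fcer1g shown covers chr1:171230067-171230087 in exon 4 and chr1:171229874-171229927 in exon 5, flanking bases included. Its ITAM crosses from exon 4 to exon 5 and was the only match to the ITAM pattern in the coding sequences of the 5 genes. The stretch of Fcgr2b shown covers chr1:170961196-170961198, the last bases of exon 7, and chr1:170961056-170961100 in exon 8, which holds the whole ITIM. It was the only match in Fcgr2b, while the looser ITIM pattern also occurred in the coding sequences of Fcgr1, Fcgr4 and Fcer1g.
Fcer1g ITAM: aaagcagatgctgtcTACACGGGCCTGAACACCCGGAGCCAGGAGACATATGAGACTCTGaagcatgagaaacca
Fcgr2b ITIM: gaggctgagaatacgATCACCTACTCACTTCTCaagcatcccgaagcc

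Fcgr2b and Fcgr3 are near copies in the part that binds IgG, and this bears on how far their reads can be told apart. Over 509 aligned coding bases they were 96.5% identical, against 65.1% or less between any other pair of the 4 receptors. The longest coding stretch present in each of them without a mismatch had 129 bases and crossed from exon 3 to exon 4. It lay at chr1:170967980-170968081 and chr1:170966674-170966700 in Fcgr2b and at chr1:171057691-171057792 and chr1:171054167-171054193 in Fcgr3, on the minus strand in each.
Shared by Fcgr2b and Fcgr3: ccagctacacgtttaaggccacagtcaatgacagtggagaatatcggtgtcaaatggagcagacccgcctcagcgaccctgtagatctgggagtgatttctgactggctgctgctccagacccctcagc
Of all windows of 100 bases along the first coding transcript of Fcgr3, 3.53% occurred unchanged in a transcript of Fcgr2b, and 1.28% the other way round. With windows of 50 bases the shares were 12.8% and 4.75%, and with 150 bases there were none. Neither read length nor the treatment of reads with more than 1 match is given in the sources used here. The counts of Fcgr2b and Fcgr3 therefore carry this uncertainty.

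Fcgr2b (chr1:170958617-170976547), Fcgr4 (chr1:171018920-171029761), Fcgr3 (chr1:171051174-171064935) and Fcer1g (chr1:171229572-171234365) lie within 275749 bases of each other, Fcgr4 on the plus strand and the others on the minus strand. Fcgr1 lies apart at chr3:96282909-96293969 on the minus strand. An antisense gene, Gm38204, overlaps 155 exonic bases of Fcgr2b and had 0 counts in all 8 libraries. In RefSeq promoter sequence of GRCm38.p6, the 250 bases before each RefSeq start were searched on both strands for the AP-1 motif TGANTCA, the interferon gamma activated site TTCNNNGAA and the core of the interferon-stimulated response element, GAAA followed by any 2 bases and GAAA. Of all promoters in that set, 6.75%, 7.02% and 2.98% held a match. For Fcgr2b and Fcgr3 the RefSeq starts lie inside the gene spans given above, so the bases before the outermost annotated start were not searched there. The AP-1 motif was in none of the windows of the 5 genes. The TTCNNNGAA motif was in that of Fcgr1, and the response element core was in that of Fcgr4, shown with the match in capitals at chr3:96294045-96294103 on the minus strand and at chr1:171018828-171018887 on the plus strand. These letters are a description of the reference sequence and not a measured binding site.
Fcgr1 promoter: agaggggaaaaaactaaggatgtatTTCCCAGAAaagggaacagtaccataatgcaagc
Fcgr4 promoter: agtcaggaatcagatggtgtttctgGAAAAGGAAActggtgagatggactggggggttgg

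Library totals ranged from 31730041 to 39888022 counts. The deleted gene, Batf2, was at 138 to 189 CPM in WT and had no count in any Batf2-/- library, where CPM is the count scaled by library size and its TMM factor. Numbers 1 to 4 name the WT libraries and 5 to 8 the Batf2-/- libraries, after their columns. Libraries 4 and 8 stood apart from the rest of their groups on the first principal component of all tested genes, so results are also given without them. All 14 markers of alveolar macrophages were detected, and their sum ran from 6110 to 7509 CPM in WT and from 8361 to 13188 CPM in Batf2-/-. Among other cells that carry Fc gamma receptors, B cell markers were mostly near 0, with 7 counts of Cd79a, 4 of Cd79b, 6 of Ms4a1 and 42 of Ighm summed over all 8 libraries, except for Cd22 with 29049 counts. The NK cell marker Ncr1, the neutrophil markers Ly6g and Retnlg, the mast cell and basophil marker Fcer1a and the liver endothelial markers Stab2 and Lyve1 were at 0 in every library. Other genes of these lists were detected, with 6882 counts of S100a8, 1319 of Cxcr2, 498 of Csf3r and 434 of Mmp8 for neutrophils, 191 of Klrk1 and 57 of Klrb1c for NK cells, 31 of Kit for mast cells and 288 of Cdh5 for endothelium. NK cell markers summed to 0.583 to 1.08 CPM in WT and 0.331 to 1.5002 CPM in Batf2-/-.

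Of the 5 genes 1 passed the test, the inhibitory receptor. Fcgr2b rose 1.70-fold in Batf2-/- cells, while Fcgr1, Fcgr3, Fcgr4 and Fcer1g did not pass the test and their groups overlapped. The test was edgeR's quasi-likelihood test with Benjamini-Hochberg adjustment over all 11083 genes and a threshold of 0.05, by which 1.11% of all tested genes changed, 0.55% upward and 0.559% downward. An unadjusted p under 0.05 was reached by 8.5% of tested genes and, of the 5, by Fcgr2b alone. Groups did not overlap for Fcgr2b and for none of the other 4, against 6.33% of tested genes in either direction and 3.03% upward. In bulk libraries, fewer cells of a type and less RNA per cell cannot be told apart, and this holds for every value here.

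Fcgr3 encodes the low-affinity activating receptor. It stood at 499, 609, 705 and 1028 CPM in WT libraries 1 to 4 and at 573, 668, 801 and 1099 CPM in Batf2-/- libraries 5 to 8. Libraries 4 and 8 were the highest of their groups and the WT and Batf2-/- ranges covered each other almost entirely. The means were 711 ± 228 CPM and 785 ± 229 CPM (SD, n = 4 each). The fitted ratio of Batf2-/- to WT was 1.11, with a 95% interval from 0.740 to 1.65 (edgeR adjusted p = 1.00). When columns in the same place under the 2 headings were treated as pairs, a pairing that the labels do not give, Fcgr3 passed upward at about the same size (log2 fold change 0.15, edgeR adjusted p = 0.0303). With that pairing 1390 of 11083 tested genes passed, 772 of them upward.

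Fcgr4 encodes an activating receptor of intermediate affinity. It stood at 254, 298, 338 and 443 CPM in WT and at 274, 284, 295 and 432 CPM in Batf2-/-. Libraries 4 and 8 were again the highest, and the other Batf2-/- libraries lay close together inside the WT range. The means were 333 ± 80.8 and 321 ± 74.5 CPM (SD, n = 4 each), a ratio of 0.965 with a 95% interval from 0.701 to 1.33 (edgeR adjusted p = 1.00).

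Fcgr1 encodes the high-affinity receptor, which can bind IgG without an immune complex. It was read from 397 to 646 counts per library, the fewest of the 5 genes, at 11.32, 15.34, 15.42 and 16.22 CPM in WT and at 14.999, 10.96, 14.13 and 21.07 CPM in Batf2-/-. The Batf2-/- libraries held the highest and the lowest value of all 8. The means were 14.6 ± 2.21 and 15.3 ± 4.23 CPM (SD, n = 4 each), a ratio of 1.05 with a 95% interval from 0.767 to 1.43 (edgeR adjusted p = 1.00). The intervals of the 3 activating receptors reach up to 1.33-fold, 1.43-fold and 1.65-fold, so an equal level in both genotypes was not shown. Without libraries 4 and 8 the log2 fold changes were 0.18 for Fcgr3, -0.05 for Fcgr4 and -0.058 for Fcgr1, and none passed. The sign turned for Fcgr3 without library 8 (-0.062), for Fcgr1 without library 1 or 8 (-0.037 and -0.13) and for Fcgr4 without library 4, 5 or 6 (0.14, 0.016 and 0.0029).

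Fcer1g, the chain that carries the ITAM shown above, was the steadiest of the 5 genes. It stood at 644, 653, 707 and 777 CPM in WT and at 684, 712, 773 and 789 CPM in Batf2-/-. Every Batf2-/- library lay above the 2 lowest WT libraries and only library 8 exceeded the highest one. The means were 695 ± 61.3 and 739 ± 49.7 CPM (SD, n = 4 each), a ratio of 1.06 with a 95% interval from 0.895 to 1.26 (edgeR adjusted p = 1.00). Without libraries 4 and 8 its log2 fold change was 0.13.

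Fcgr2b, the receptor with the ITIM, had 2079, 2110, 2051 and 1458 counts in WT and 4434, 3056, 3320 and 2538 counts in Batf2-/-. Scaled, these were 53.4, 56.1, 56.9 and 45.1 CPM in WT and 110, 84.34, 83.01 and 82.77 CPM in Batf2-/-. The lowest Batf2-/- library lay well above the highest WT library, and library 5 stood above the other Batf2-/- libraries, which were within a few CPM of each other. The means were 52.9 ± 5.37 and 90.2 ± 13.6 CPM (SD, n = 4 each). The log2 fold change was 0.77 with a standard error of 0.13, a 1.70-fold rise with a 95% interval from 1.39 to 2.10 (edgeR adjusted p = 0.0285). An exact two-sided permutation test of the CPM gave an unadjusted p = 0.0286, the smallest that 70 assignments of 4 against 4 libraries allow. Groups without overlap, seen in 6.33% of tested genes, fix p at this value, so it adds nothing to the separation. A log2 fold change at least this high was fitted for 2.61% of tested genes.

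The call for Fcgr2b did not hold under every omission of a library. Leaving out library 4 or 8 kept it (edgeR adjusted p = 0.0432 and 0.0342), as did leaving out the pair of them (0.0192). Leaving out library 1, 2, 3, 5, 6 or 7 ended it, with adjusted p from 0.0547 to 0.0901, while the ratio stayed between 1.58 and 1.77 over all single omissions. The ratio was 1.58 without library 5. Several marker sums also shifted between genotypes, though no sum was tested and the neutrophil, T cell and endothelial ranges overlapped. The sum for alveolar macrophages was higher in every Batf2-/- library, and 1 of 14 markers, Car4, rose. Most of the sum came from Chil3, at 3316 ± 613.4 CPM in WT against 6291 ± 2055 CPM (SD, n = 4 each). Chil3 did not pass (edgeR adjusted p = 0.1465). Other markers went either way without passing, with log2 fold changes of 0.69 for Plet1 and 0.63 for Marco, but -0.31 for Pparg and -0.26 for Siglecf. Dendritic cell markers summed to 5.82 to 7.63 CPM in WT and 4.28 to 5.68 CPM in Batf2-/-, without overlap, with 3 of 7 tested, 1 of which fell, and Cd209a and Siglech at 0. Zbtb46 went the other way, at 0.937 CPM in WT against 1.92 CPM in Batf2-/-, without passing (edgeR adjusted p = 0.0965). Ccr7 was slightly lower (log2 fold change -0.18) and did not pass. Mast cell and basophil markers summed to 0.0266 to 0.0770 CPM in WT and 0.110 to 0.224 CPM in Batf2-/-, with 0 of 8 tested. Neutrophil markers summed to 20.4 to 33.2 CPM and 32.7 to 54.1 CPM, with 4 of 10 tested and none passing. T cell markers summed to 0.186 to 0.976 CPM and 0.524 to 4.48 CPM with 0 of 7 tested, and endothelial markers to 0.402 to 0.924 CPM and 0.848 to 4.04 CPM with 2 of 7 tested and none passing. Their part in the rise of Fcgr2b was not tested. B cell markers summed to 75.1 to 114 CPM in Batf2-/- and 80.3 to 123 CPM in WT, nearly all of it from Cd22.

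**Figure D1:**
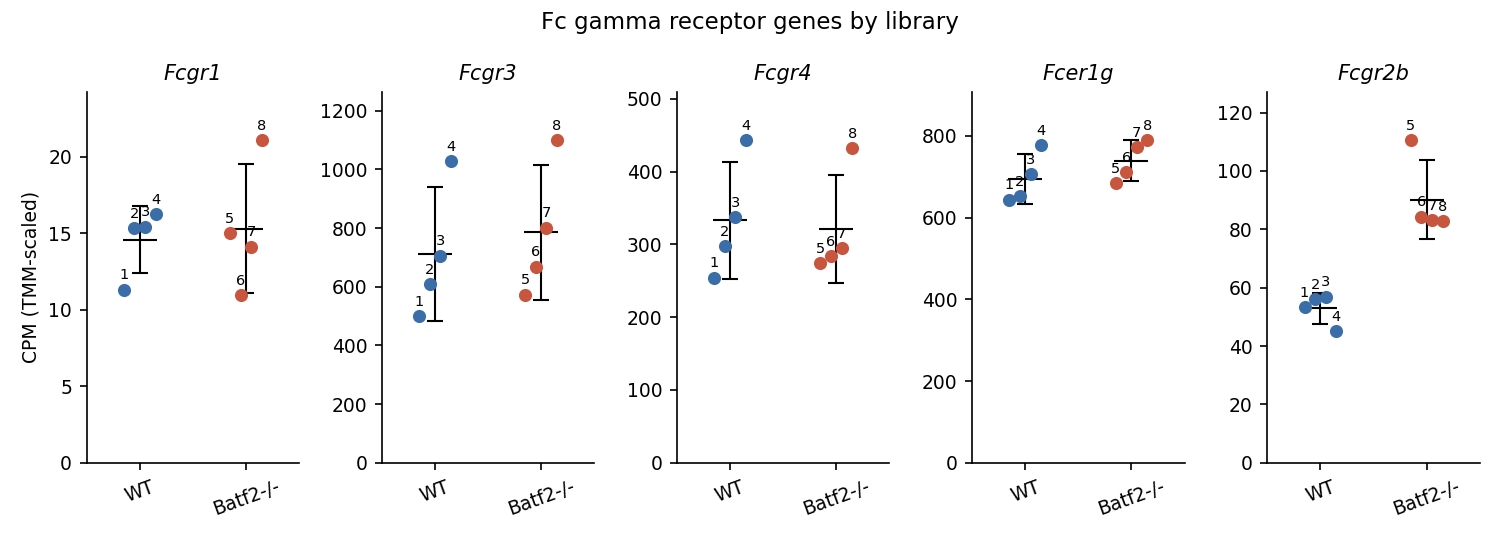
CPM of each gene in each library, with WT in blue and Batf2-/- in red, numbers giving the library, black bars the mean ± SD of 4 libraries, and each vertical axis starting at 0. Fcgr2b is the one gene whose groups separate, at 45.1 to 56.9 CPM in WT and 82.8 to 110 CPM in Batf2-/-, while in Fcgr3 and Fcgr4 libraries 4 and 8 lie highest.

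**Figure D2:**
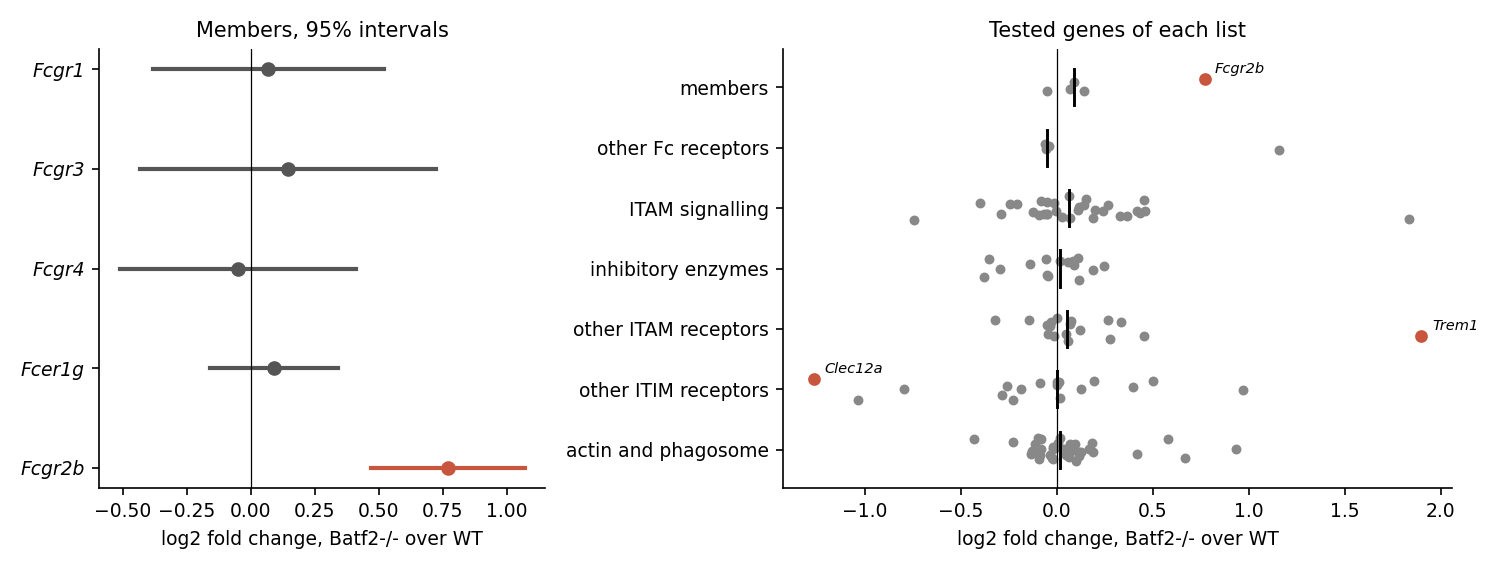
Left, log2 fold change of Batf2-/- over WT for each of the 5 genes with its 95% interval. Right, log2 fold changes of the tested genes in each list, with the list median as a black line and genes past an adjusted p of 0.05 in red, where Fcgr2b and Trem1 lie to the right and Clec12a to the left.

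The balance of activating and inhibitory transcripts was described by ratios within each library, in which the library scaling cancels. The summed CPM of Fcgr1, Fcgr3 and Fcgr4 was 14.3, 16.4, 18.6 and 33.0 times that of Fcgr2b in WT and 7.81, 11.4, 13.4 and 18.8 times in Batf2-/-. The order of the libraries was the same in each genotype as for Fcgr3, with libraries 4 and 8 highest, and the groups overlapped, with libraries 1 to 3 below library 8. On the log2 scale the mean ratio was 4.28 ± 0.53 in WT and 3.61 ± 0.52 in Batf2-/- (SD, n = 4 each), a difference of -0.67. Without libraries 4 and 8, WT ran from 14.3 to 18.6 and Batf2-/- from 7.81 to 13.4, and these groups did not overlap. The share of all tested genes that separate in this way without these libraries was not counted. With all 8 libraries, the ratio to Fcgr2b was lower without overlap for 66.3% of tested genes. With columns paired by position, which the labels do not give, the log2 ratio was lower in Batf2-/- in all 4 pairs, with differences of -0.88, -0.53, -0.48 and -0.81. Fcgr2b itself was higher in Batf2-/- in all 4 pairs, by 1.05, 0.59, 0.55 and 0.87, which lowers any ratio to it.

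For each activating receptor alone, the log2 ratio to Fcgr2b differed by -0.61 for Fcgr3, by -0.81 for Fcgr4 and by -0.72 for Fcgr1, with overlapping groups in each and lower Batf2-/- values in all 4 pairs by position. The ratio of Fcgr3 to Fcgr2b ran from 9.36 to 22.8 in WT and from 5.19 to 13.3 in Batf2-/-, and that of Fcgr4 to Fcgr2b from 4.76 to 9.81 and from 2.48 to 5.22. The ratio of Fcer1g to Fcgr2b ran from 11.6 to 17.2 in WT and from 6.19 to 9.53 in Batf2-/-, and its groups did not overlap. The ratio to Fcgr2b was lower without overlap for 66.3% of all tested genes, so the shift of Fcer1g against Fcgr2b was one that most genes showed. Among activating receptors alone, Fcgr3 was 1.97 to 2.32 times Fcgr4 in CPM in WT and 2.09 to 2.72 times in Batf2-/-, with overlapping groups.

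**Figure D3:**
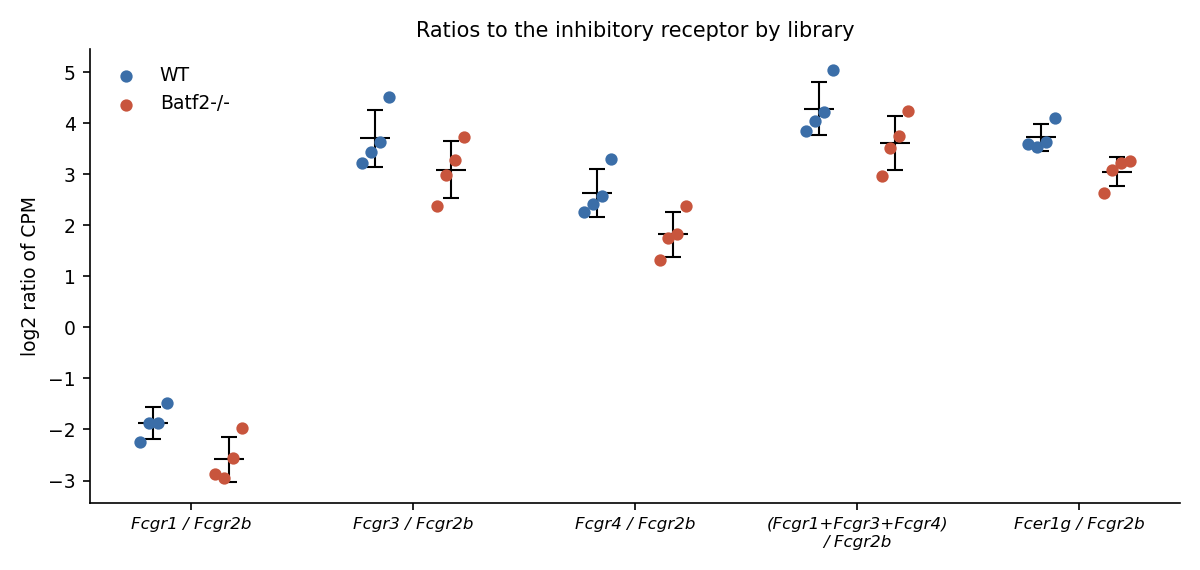
Log2 ratio of CPM to Fcgr2b in each library, WT in blue and Batf2-/- in red, with the mean ± SD of 4 libraries in black. The Batf2-/- values sit lower for each ratio, by 0.61 to 0.81 in the mean, and the groups separate fully only for Fcer1g.

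Levels of different genes were compared per kilobase of exon. With the union of annotated exons, Fcer1g was highest at 795 ± 70.1 CPM per kilobase in WT (SD, n = 4), followed by Fcgr3 at 409 ± 131 and Fcgr4 at 265 ± 64.3 CPM per kilobase. Fcgr2b at 9.13 ± 0.928 and Fcgr1 at 5.63 ± 0.852 CPM per kilobase were far lower. In Batf2-/- the levels were 846 ± 56.9 for Fcer1g, 452 ± 132 for Fcgr3, 256 ± 59.3 for Fcgr4, 15.6 ± 2.34 for Fcgr2b and 5.90 ± 1.63 CPM per kilobase for Fcgr1, in the same order. Fcgr3 and Fcgr4 overlapped over libraries in this order, though Fcgr3 was higher in every single library. The length chosen matters for Fcgr2b, whose 4 coding transcripts run from 1084 to 3544 bases against 5790 bases in the exon union, which also covers retained introns. With its shortest coding transcript Fcgr2b stood at 48.8 ± 4.96 CPM per kilobase in WT, still below Fcgr4. The exon union of Fcgr3 was 1736 bases, and with its shortest coding transcript of 547 bases its level would be 1299 ± 417 CPM per kilobase, above that of Fcer1g.

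As shares of the 4 receptor transcripts per kilobase of exon union, Fcgr3 made up 59.0 ± 1.99% in WT and 61.6 ± 3.04% in Batf2-/-, and Fcgr4 38.8 ± 1.44% and 35.3 ± 2.26% (SD, n = 4 each). Fcgr2b made up 1.42 ± 0.436% and 2.27 ± 0.795%, with ranges of 0.813 to 1.83% and 1.43 to 3.33% that overlapped. Fcgr1 made up 0.841 ± 0.137% and 0.815 ± 0.143%. Low-affinity and intermediate-affinity activating receptors thus made up nearly all receptor transcripts in each genotype, while Fcgr2b remained a minor one after its rise.

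The genes also differed in how they varied between libraries of 1 genotype. The coefficient of variation, averaged over the genotypes, was 30.6% for Fcgr3, 23.7% for Fcgr4, 21.4% for Fcgr1, 12.6% for Fcgr2b and 7.77% for Fcer1g, against a median of 16.0% over 8525 genes whose log2 CPM averaged 2 or more. Fcgr3 varied more than 92.3% of those genes and Fcer1g more than 16.05%. The first principal component, which held 42.5% of the variance over all tested genes, moved with these differences. After removal of the group means, the correlation of log2 CPM with its scores over the 8 libraries was 0.99 for Fcgr3, 0.95 for Fcgr4, 0.95 for Fcer1g, 0.66 for Fcgr1 and -0.78 for Fcgr2b. Without libraries 4 and 8 and with group means kept, it was 0.63 for Fcgr3, 0.73 for Fcgr4, 0.37 for Fcer1g, 0.23 for Fcgr1 and -0.62 for Fcgr2b. The points share their libraries, and what sets the component was not tested.

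Fcgr3 and Fcer1g varied together, with a Pearson correlation of log2 CPM of 0.94 (Spearman 0.95) over the 8 libraries, or 0.91 without libraries 4 and 8. Fcgr3 and Fcgr4 stood at 0.93 (Spearman 0.86), or 0.70 without them. Fcgr2b and Fcgr3 stood at -0.07 (Spearman -0.10), and at -0.71 once group means were removed, with Fcgr2b lowest in libraries 4 and 8, in library 8 by a small margin, where Fcgr3 was highest. Without libraries 4 and 8 and with group means kept, the correlation was 0.22.

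**Figure D4:**
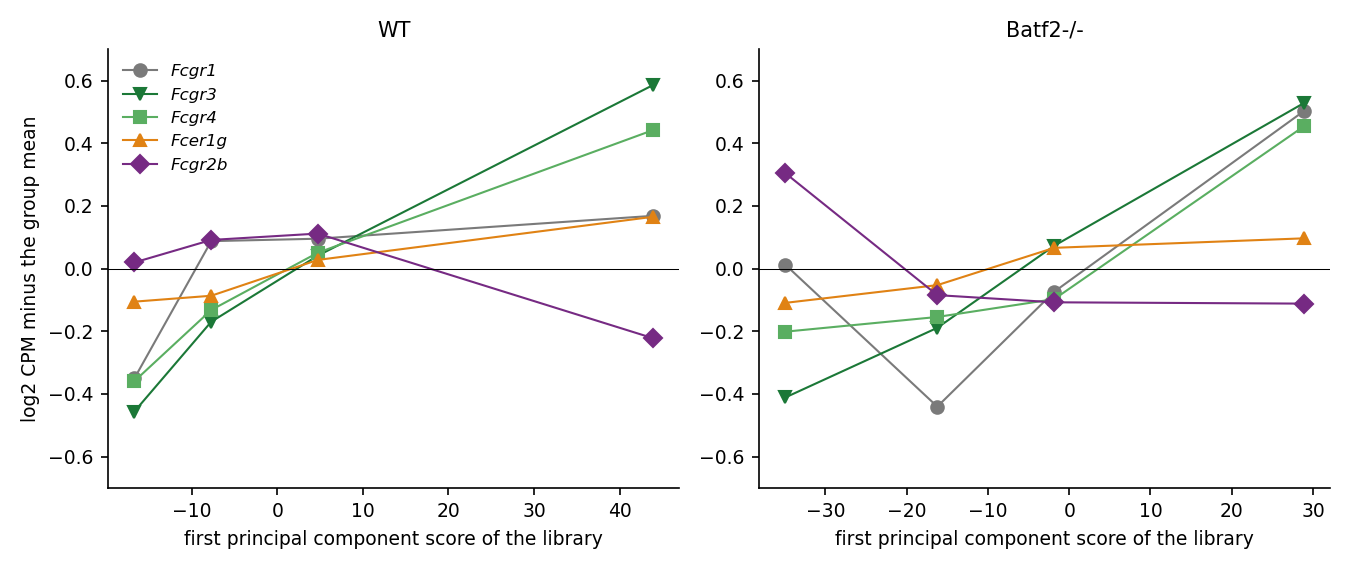
Log2 CPM of each gene minus its group mean, against the score of the library on the first principal component, in WT (left) and Batf2-/- (right), with 1 point per library. Fcgr3 and Fcgr4 lie highest in the library with the highest score of each genotype, while Fcgr2b lies lowest there.

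The other Fc receptors showed no call. Of 15 listed genes 4 were tested and none passed. Fcrlb, an intracellular Fc receptor-like protein whose gene at chr1:170907273-170912941 lies near Fcgr2b, stood at 1.05, 2.02, 1.44 and 1.18 CPM in WT and at 4.16, 3.42, 2.40 and 2.71 CPM in Batf2-/-. Its groups did not overlap, at 1.42 ± 0.430 and 3.17 ± 0.786 CPM (SD, n = 4 each), but it did not pass over all genes (edgeR adjusted p = 0.0797). It passed upward in 2 of 16 alternatives, with DESeq2 (adjusted p = 0.00232) and with columns paired by position in edgeR (adjusted p = 0.00757). Fcgrt, the neonatal Fc receptor that recycles IgG, stood at 32.1 ± 0.630 and 30.9 ± 4.11 CPM, and Trim21, a cytosolic receptor for antibody, at 71.2 ± 6.88 and 68.2 ± 5.94 CPM (edgeR adjusted p = 1.00 for each).

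None of the signalling genes below the activating receptors passed. All 32 listed genes were tested, some of them at low levels, with a median log2 fold change of 0.07 against -0.01 over all tested genes. Blnk, an adaptor best known from B cells, had the smallest p, at 0.508 ± 0.240 CPM in WT against 1.83 ± 1.12 CPM in Batf2-/- (SD, n = 4 each, edgeR adjusted p = 0.145). Pik3r5, a regulatory subunit of PI3 kinase gamma, stood at 153 ± 30.5 and 210 ± 34.8 CPM (adjusted p = 0.472). Syk, which binds the phosphorylated ITAM, stood at 852 ± 146 and 1071 ± 165 CPM (adjusted p = 0.698) and Lyn, a Src-family kinase, at 358 ± 44.7 and 335 ± 45.4 CPM (adjusted p = 1.00). Syk, Lyn, Inpp5d and Tyrobp are named for their roles, after their values were seen.

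The list of inhibitory enzymes and adaptors had no call among 15 tested genes of 17, with a median log2 fold change of 0.02. Csk, the kinase that restrains Src-family kinases, stood at 78.2 ± 6.05 CPM in WT against 60.1 ± 7.28 CPM in Batf2-/- without overlap (SD, n = 4 each, edgeR adjusted p = 0.273). Ptpn6, which encodes the phosphatase SHP-1, stood at 659 ± 60.5 and 536 ± 55.0 CPM (adjusted p = 0.501). Inpp5d, whose product is recruited by the ITIM of Fcgr2b, stood at 36.1 ± 8.71 and 38.4 ± 5.77 CPM (adjusted p = 1.00).

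None of the other tested receptors with inhibitory motifs rose. Of 22 listed genes 17 were tested, 1 fell and 16 did not pass, with a median log2 fold change of 0.00. Clec12a, an inhibitory C-type lectin that senses dying cells, stood at 5.08, 4.89, 5.44 and 7.74 CPM in WT and at 2.47, 2.18, 1.88 and 3.13 CPM in Batf2-/-. It fell 2.40-fold (edgeR adjusted p = 0.0221), and the call ended without library 3, 5, 6 or 7 (adjusted p from 0.0642 to 0.107). Cd300a, an inhibitory receptor for phospholipids, stood at 103, 109, 118 and 164 CPM in WT and at 41.9, 55.6, 58.4 and 85.1 CPM in Batf2-/-, again without overlap, and did not pass (adjusted p = 0.0798). It passed downward in 4 of 16 alternatives, without library 8 (adjusted p = 0.0199), without libraries 4 and 8 (0.00513), with DESeq2 (0.00118) and with columns paired by position (8.68e-06). In all, 4 of the 17 had non-overlapping groups that were lower in Batf2-/- and 1 had non-overlapping groups that were higher, against 3.29% of all tested genes downward and 3.03% upward. The test of a difference in response between Fcgr2b and these genes was not made.

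Among 18 tested adaptors and receptors of the ITAM type other than Fcer1g, 1 rose and 17 did not pass, with a median log2 fold change of 0.05. The riser was Trem1, a receptor that signals through Tyrobp and amplifies inflammation, at 0.770, 0.425, 0.472 and 0.495 CPM in WT and 2.19, 1.38, 2.78 and 1.76 CPM in Batf2-/-, a 3.73-fold rise (edgeR adjusted p = 0.0141). The call ended without library 2 or 3 (adjusted p = 0.0576 and 0.0816). Tyrobp, the ITAM chain of Trem1, stood at 796 ± 233 and 836 ± 246 CPM (SD, n = 4 each, adjusted p = 1.00). Of 35 tested genes for actin remodelling and the phagosome none passed, with a median log2 fold change of 0.02. Myo10, an unconventional myosin of filopodia and phagocytic cups, had the smallest p, at 4.20 ± 1.09 and 8.02 ± 1.52 CPM without overlap (adjusted p = 0.0823). Sphk1, a sphingosine kinase, stood at 17.2 ± 3.07 and 25.7 ± 5.71 CPM (adjusted p = 0.306).

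No gene around the receptors passed the test. Within 500000 bases of the chromosome 1 genes, 22 other genes were tested and none passed, with a median log2 fold change of -0.03, and Fcrlb was the only one with non-overlapping groups. The next smallest p belonged to Alyref2, an RNA export factor, at 2.87 ± 0.397 CPM in WT against 1.89 ± 0.399 CPM in Batf2-/- (SD, n = 4 each, edgeR adjusted p = 0.262). Around Fcgr1, none of 24 tested genes passed. Txnip, an inhibitor of thioredoxin, stood at 34.8 ± 3.18 and 47.5 ± 4.86 CPM (adjusted p = 0.140) and Lix1l at 2.69 ± 0.404 and 4.10 ± 0.751 CPM (adjusted p = 0.224).

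The genes most like each of the 5 were those with the highest Pearson correlation of log2 CPM over the 8 libraries among 8493 others whose log2 CPM averaged 2 or more. For Fcgr2b these were Pkdcc, a secreted kinase (r = 0.99), the chemokine Cxcl10 (0.98) and Osbpl3, a lipid-binding protein (0.98), with Spearman values of 0.98, 0.90 and 0.83. Within genotypes their correlations with Fcgr2b were 0.90, 0.88 and 0.86. Without libraries 4 and 8 and with group means kept, they were 0.99, 1.00 and 0.99. Pkdcc and Cxcl10 themselves rose in Batf2-/- (edgeR adjusted p = 0.0130 and 0.00802). For Fcgr3 the nearest were Gpx4, a lipid peroxide reductase, Polb, a repair polymerase, and the chaperone gene Hspa8 (r from 0.99 to 1.00, and 0.98 to 0.99 without libraries 4 and 8), and for Fcgr4 they were Acp1, Bola3 and Lrrc42 (r = 0.99 for each). For Fcer1g they were Wfdc17, Cd320 and Il1f9 (r from 0.98 to 0.99), and for Fcgr1 Dhrs7, Gstp1 and Evi2a (r from 0.94 to 0.99). None of the 12 genes nearest to Fcgr1, Fcgr3, Fcgr4 or Fcer1g passed the test between genotypes. The ranking kept the group means, so near genes tend by selection to share the genotype difference of their member, or its absence. Whether they pass is therefore not separate evidence.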

How the data were processed

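The table the authors deposited holds unnormalized counts for each gene, called raw total counts in its header. The build was GRCm38 (mm10), per the submitters' processing notes, and a stranded kit for mRNA was used, per the labels' protocols. The aligner, counting tool, strand setting, annotation release and read length are not given in the sources used here. Columns were assigned to genotype by the heading above them. They carry no replicate number, so libraries are numbered by column.

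The count per library ranged from 31730041 to 39888022. Pairs of libraries within a genotype differed by far more than sampling noise (lowest chi-square per degree of freedom 30.5), and all 8 count as separate samples. Counts were fitted with edgeR 4.0.16 under R 4.3.3 and its quasi-likelihood test (robust, TMM, default expression filter, genotype as the only term), and p-values were adjusted over 11083 genes. Intervals come from the same fit. Pathway and marker lists were described by counts and medians, with no set test. The procedure was tested on simulated counts drawn independently for each gene and library. They lacked the variation that genes share along the first principal component, so they do not show how the procedure handles it. The genes, lists and alternatives were chosen with earlier results of these data known. List genes were named where they passed, or as the 2 with the smallest p. Cd300a was chosen after its values were seen. Alternatives were DESeq2 1.42.0, limma-voom (limma 3.58.1), other normalizations and filters, a block on column position and leaving out libraries.

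Gene positions, exon lengths and coding sequences came from GENCODE M21 on GRCm38, in which 48349 of 48709 identifiers were found, and promoters from RefSeq, in which all 5 genes were found. Protein sequences were not used here, and 1 marker gene is not reported here.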

Additional observations from a re-analysis of the deposited data

Results flagged for a closer look

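Among 22 sets of 4 libraries examined for a value far from the others, 3 held one, where chance gives about 1 in 20. Fcgr2b in Batf2-/- was set apart by library 5, at 110 CPM against 82.8 to 84.3 CPM in the other libraries (gap over range 0.943, above the 95% critical value of Dixon's test, as are the other 2). Fcgr4 in Batf2-/- was set apart by library 8, at 432 CPM against 274 to 295 CPM (gap over range 0.87). The log2 ratio of Fcer1g to Fcgr2b in WT was set apart by library 4, at 4.11 against 3.54 to 3.63 (gap over range 0.834). Fcgr2b had a log2 fold change of 0.66 without library 5, and Fcgr4 one of -0.23 without library 8.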

How the results depend on the processing

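Fcgr2b stayed higher in Batf2-/- under all 16 alternatives and passed in 10 of them, with log2 fold changes from 0.66 to 0.82 and edgeR, DESeq2 or limma adjusted p from 1.06e-05 to 0.0901. The 6 in which it missed the threshold each left out 1 library, and leaving out single libraries gave log2 fold changes from 0.66 to 0.82. Fcer1g kept its direction without passing. Fcgr1, Fcgr3 and Fcgr4 changed sign when single libraries were left out, over ranges of -0.13 to 0.20, -0.062 to 0.40 and -0.23 to 0.14, and Fcgr1 stood at -0.058 without libraries 4 and 8, and the cause was not tested.

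Column numbers are not the replicate numbers of the labels, so the replicate block used column position. Deviations from the group means correlated at 0.60, 0.50, 0.27 and 0.76 for columns in the same place, each the highest for its library, which is a hint from the data and not the design. With the block Fcgr3 passed upward (log2 fold change 0.15, adjusted p = 0.0303), as did Fcgr2b (0.76, adjusted p = 0.00100), and 1390 genes passed in all, against 123 in the fit without it. DESeq2 gave 343 of 16518 genes with a p-value, the fit without libraries 4 and 8 206, and single omissions 43 to 142. Under the block, members called went from 0 to 11 of 32 tested for ITAM signalling and 0 to 5 of 15 for inhibitory enzymes. They went from 1 to 3 of 18 for other ITAM receptors and 1 to 6 of 17 for other ITIM receptors. For actin and phagosome genes they went from 0 to 4 of 35, and for other Fc receptors from 0 to 1 of 4. These counts stand beside 1390 of all 11083 tested genes. DESeq2 called 3 other ITIM receptors, and 1 each in the lists of other Fc receptors, ITAM signalling, and actin and phagosome genes. The difference in the ratio of activating receptors to Fcgr2b moved by less than the spread between replicates in its 10 alternatives.

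Counts per library were lowest for Fcgr1, at 397 to 646.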
